A study of Homo sapiens with 10 samples.

Results

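The cells described here are the G2 and mitosis cells of the HCT-116 cultures, compared between doxorubicin (DOX) and untreated. HCT-116 is an established human colon cancer line, and DOX is an anthracycline that traps topoisomerase II on DNA and breaks it. They were selected on measured values, the summed UMIs of 8 G2/M genes, in 4 single-cell RNA sequencing libraries from the 7465 deep barcodes, those with 20000 to under 150000 unique molecular identifiers (UMIs, each counting 1 captured mRNA), under 12000 genes and a mitochondrial share under 8%. A G2/M score was the summed UMIs of CCNB1, CDC20, PLK1, AURKA, CENPF, CENPE, TPX2 and HMMR over all UMIs of the cell, and a cell was kept if it lay above the 75th percentile of the score over the deep cells of both untreated libraries. The gate of 19.70 score UMIs per 10000 UMIs kept 1603 of 7465 deep cells, out of 23229 barcodes in all. Of these, 806 and 505 came from the untreated libraries (replicates 1 and 2) and 170 and 122 from the DOX libraries.

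The DOX cultures had been given 200 nM DOX for 24 h and then left for 6 d without the drug, and the untreated cultures are labelled only as such. Neither the labels nor the methods say that replicates 1 and 2 were separate cultures, so p-values measure the spread between these libraries, which may be technical. The bulk RNA samples of the series were not used here. The gated cells of a library were summed, which gave 60724972 and 43914617 UMIs for untreated replicates 1 and 2, and 13197374 and 10975157 for those of DOX. Levels are given as counts per 1000000 UMIs of that sum (CPM). No gated barcode was shared between libraries, and doublets were kept, since the caller Scrublet marked only 0, 9, 0 and 0 barcodes. Without the 5% of deep cells of each library with the top doublet scores 1554 genes were higher and 1404 lower with DOX in G2/M cells, against 1470 and 1314 with them.

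A cell enters mitosis when cyclin B and CDK1 outrun the kinase WEE1 and its relative PKMYT1, helped by CDC25 phosphatases, and leaves it when the anaphase-promoting complex, with CDC20, destroys cyclin B. DNA damage stops cells before this point through ATR and CHEK1 and, more slowly, through p53 and its target CDKN1A (p21). Genes of the late cycle are held down by p53 and p21 through the DREAM complex, which sits on a short promoter element, the cell cycle homology region. A separate program, the interferon response, is driven by ISGF3, a complex in which IRF9 binds DNA together with STAT proteins. Without phosphorylation of the STATs (U-ISGF3) it keeps a subset of interferon genes on for days, by binding the interferon-stimulated response element (ISRE).

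Fewer deep DOX cells than untreated cells lay above the gate. The share was 24.3% (95% exact binomial interval 22.8 to 25.8%) and 26.2% (24.3 to 28.3%) in the untreated libraries, whose pooled share the rule itself fixes. It was 13.5% (11.7 to 15.5%) and 12.7% (10.6 to 15.0%) in the DOX libraries. The intervals cover counting error only. Both DOX shares were below both untreated shares, a mean of 13.1% ± 0.580 against 25.3% ± 1.39 (SD, n = 2 each), and the two-sided exact permutation test over libraries gave p = 0.333, which with 2 libraries against 2 cannot go below 0.33. The shares hold only for deep cells: in the DOX libraries, where 8000 barcodes were kept by instruction, only 1259 and 962 barcodes were deep.

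**Figure D1:**
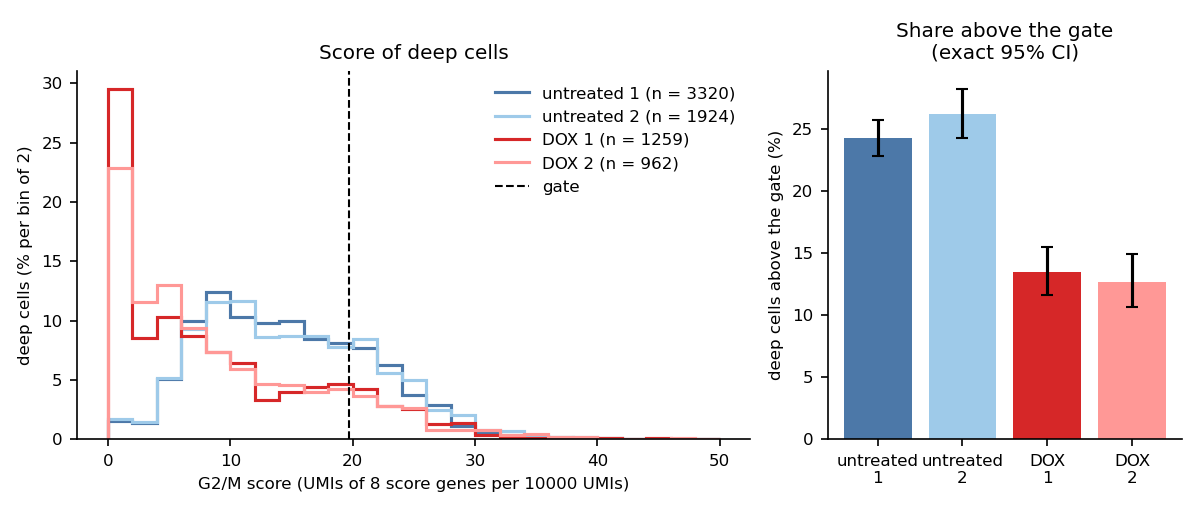
The left panel plots the G2/M score (UMIs of the 8 score genes per 10000 UMIs) against the percent of deep cells in each bin of 2, with 1 line for each of 4 libraries and a dashed line at the gate. The right panel plots the percent of deep cells above the gate with exact 95% binomial intervals: 24.3% and 26.2% in the untreated and 13.5% and 12.7% in the DOX libraries.

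Within the gate the score itself was alike. Its median was 23.0 and 23.3 per 10000 UMIs in the untreated and 23.3 and 23.8 in the DOX libraries, while below the gate it was 11.5 and 11.4 (untreated) and 5.06 and 5.41 (DOX). The cells nearest the gate scored 19.707, 19.704, 19.816 and 19.721 just inside and 19.703, 19.697, 19.691 and 19.665 just outside, in the order untreated 1, untreated 2, DOX 1, DOX 2. The gate is therefore no gap in the data, and it cuts through a continuous range of cells. The median depth of gated cells was 71689 and 83661 UMIs without and 77975 and 91882.5 with DOX, and these ranges overlapped. The mitochondrial share was higher in both DOX libraries, 5.39% and 5.34% against 4.85% and 4.72% (exact permutation p = 0.333), a difference whose part in the results below was not tested.

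The genes that set the score are a description and not a result. CCNB1, which encodes cyclin B1, stood at 460 and 439 CPM in the untreated and 446 and 470 CPM in the DOX libraries. CENPF, a kinetochore protein that rises in G2, stood at 484 and 534 CPM (untreated) and 546 and 583 CPM (DOX). CDC20, which turns on the anaphase-promoting complex, had 412 and 378 CPM (untreated) against 335 and 314 CPM (DOX). The first of these overlapped between the conditions, and the latter pair did not.

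G2/M genes that were not used in the score were high in the gated cells of both conditions. At an equal depth of 20000 UMIs per cell, the 45 measured genes of this kind summed to medians of 158 and 158 UMIs in untreated and 158.5 and 165 UMIs in DOX gated cells. Deep cells below the gate had 102 and 101 without and 70 and 71 with DOX. Epithelial EPCAM was found in at least 98.8% of gated cells of each library at that depth. Of the 9 markers of other cell types in the files, the whole list summed to 6.42 and 6.83 CPM (untreated) and 8.49 and 10.4 CPM (DOX). PTPRC had at most 1 UMI in any gated sum, CD3E at most 1, CD79A at most 5 and LYZ at most 4. CD68, a macrophage marker that other cells also express, had 131 and 107 UMIs without and 43 and 50 UMIs with DOX, in smaller DOX sums, and rose by 0.73 on the log2 scale, a call lost without untreated replicate 1 or DOX replicate 2. COL1A1, a fibroblast collagen, had 200 and 137 UMIs against 52 and 49 UMIs, a log2 fold change of 0.35 that did not pass. Their part in the results was not tested.

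Few G2/M genes outside the score differed between DOX and untreated cells above the gate. The choice of cells by score partly sets this, since all 45 were higher above the gate than below it in each library. In edgeR's quasi-likelihood test 17.1% of 16311 genes tested differed between DOX and untreated at an adjusted p under 0.05, 9.01% higher and 8.06% lower. Of the 45 G2/M genes outside the score only 3 did, which is below that background, and their median log2 fold change was 0.03 against 0.01 over all genes. CDC25C and GAS2L3 rose and PSRC1 fell, by 0.31, 0.34 and 0.31 on the log2 scale, and each of these calls was lost without at least 1 library (without DOX replicate 2, none of the 45 was called). Below the gate all 45 fell, with a median of −0.84, in a comparison where 51.3% of genes were called.

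**Figure D2:**
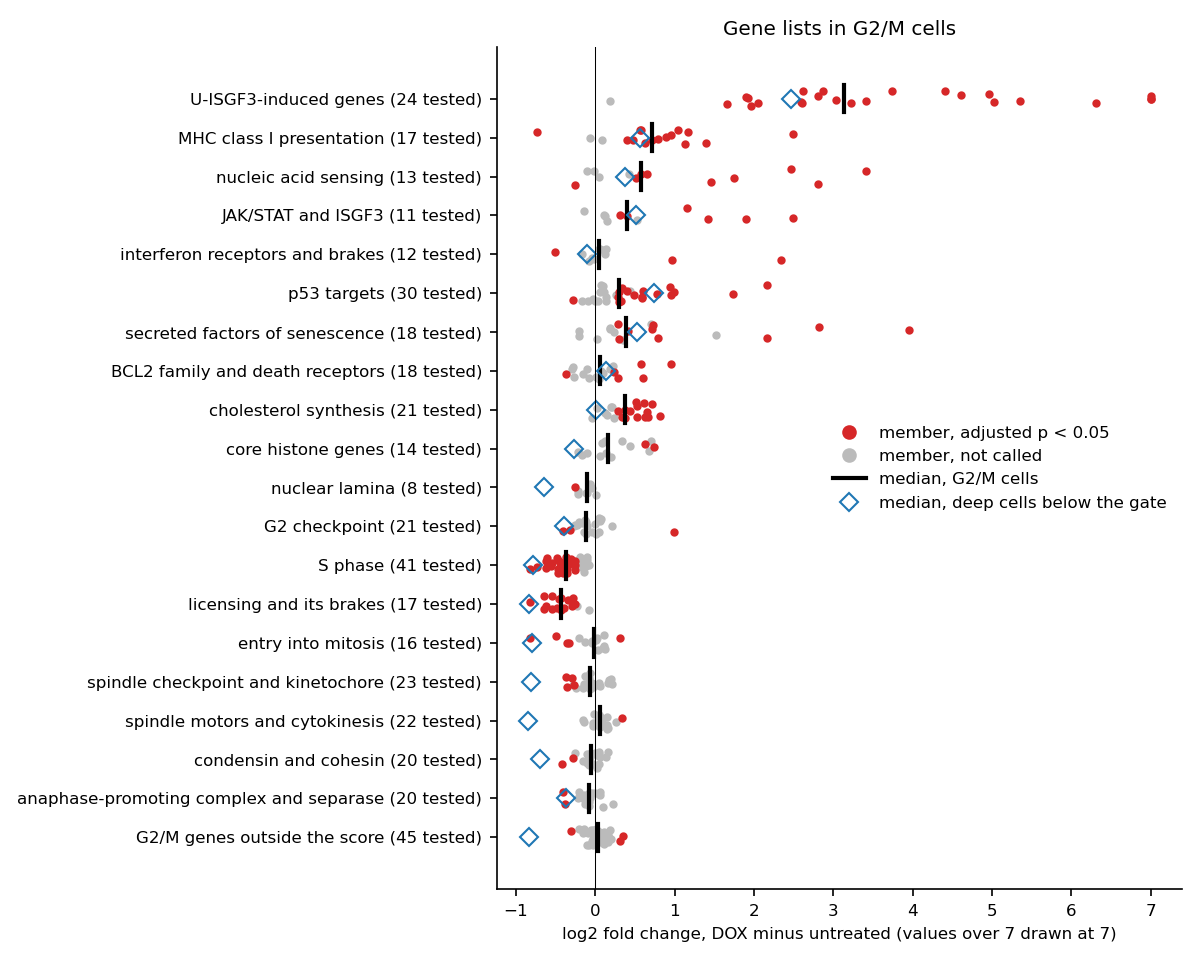
Each point is a gene tested in G2/M cells, placed by its log2 fold change (DOX minus untreated, x axis) in the row of its list, in red where the adjusted p was under 0.05 and in grey otherwise. The black bar is the list's median in G2/M cells and the blue diamond its median below the gate: mitotic lists sit near 0 in the gate and between −0.85 and −0.38 below it, while the tested U-ISGF3-induced genes have medians of 3.13 (2.81 without 5 genes near 0 in untreated cells) and 2.47.

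MKI67, the proliferation marker Ki-67, was at 359 and 415 CPM in untreated and 413 and 467 CPM in DOX G2/M cells. BIRC5, which encodes survivin of the chromosomal passenger complex, was at 290 and 310 CPM (untreated) and 289 and 298 CPM (DOX). LMNB1, the lamin that senescent cells lose, was at 111 and 112 CPM (untreated) and 103 and 115 CPM (DOX). In all 3 genes the libraries of the conditions overlapped, and the log2 fold changes were 0.16, −0.06 and −0.07 with SE of 0.085, 0.075 and 0.077, at adjusted p of 0.217, 0.648 and 0.599 by edgeR's quasi-likelihood test. All 3 were higher above the gate than below it in each library, so the choice of cells by score partly sets how alike they were.

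The parts of the mitotic apparatus differed little from one another, and the choice of cells by a G2/M score partly sets these values too. Of 22 spindle motors and cytokinesis genes 1 rose, ASPM, a protein of the spindle poles, with 114 and 128 CPM (untreated) and 155 and 157 CPM (DOX), a log2 fold change of 0.34 whose call was lost without either DOX library. Of 20 genes of the anaphase-promoting complex and separase the subunits CDC26 and ANAPC13 fell, by 0.41 and 0.38 on the log2 scale, 10.0% of the list against 8.06% of all genes that were lower. CDC26 lost its call without DOX replicate 2, and ANAPC13 without DOX replicate 1 or untreated replicate 1. ANAPC1, the largest subunit, was at 53.6 and 56.5 CPM (untreated) and 57.4 and 49.6 CPM (DOX), which overlap. Of 20 condensin and cohesin genes 2 fell, CDCA5 (sororin, which protects cohesion) and SMC3 (a cohesin subunit), by 0.43 and 0.29, again 10.0% of the list, and none was called without DOX replicate 2.

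The kinetochore list of 23 genes had 4 that fell and none that rose, 17.4% called, which is near the 17.1% of all genes. ZWINT, a link of the outer kinetochore, fell from 124 and 113 CPM to 95.5 and 91.0 CPM, a log2 fold change of −0.37. CENPU, ZW10 and DSN1 fell by 0.35, 0.29 and 0.27. ZW10 lost its call in 11 and CENPU in 6 of 17 alternatives, and 1 gene of the list was called without DOX replicate 1 and 1 without DOX replicate 2. The checkpoint kinases of this list, TTK and BUB1, had log2 fold changes of 0.06 and −0.03, which did not pass.

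Of the 16 genes of mitotic entry 5 were called, or 31.2%, against 17.1% of all genes, with a list median of −0.02. CDC25A, a phosphatase that works from S phase on and is destroyed after DNA damage, had 18.0 and 20.9 CPM in untreated and 10.9 and 11.4 CPM in DOX G2/M cells. Every DOX value lay well below every untreated value, and the log2 fold change was −0.83, with adjusted p = 1.32e-04 in edgeR and an SE of 0.114. PKMYT1, the inhibitory kinase of CDK1, fell from 45.0 and 44 CPM to 31.5 and 32.7 CPM, a log2 fold change of −0.50, with adjusted p = 8.70e-04 and an SE of 0.086. CDC25C, in contrast, stood at 32.4 and 37.8 CPM (untreated) and 42.7 and 46.1 CPM (DOX). In this list 4 genes fell (CDC25A, PKMYT1, MYBL2 and LIN54) and 1 rose, CDC25C; without DOX replicate 2 only 2 of them fell and none rose. CDK1, CCNA2 and WEE1 did not pass, with log2 fold changes of 0.11, −0.13 and −0.04.

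Of the 21 genes of the G2 checkpoint 3 were called, or 14.3%, which is no more than the 17.1% of all genes. GADD45A, a p53-induced inhibitor of CDK1, rose from 29.8 and 29.0 CPM to 43.9 and 76.2 CPM, and the DOX libraries differed so much that the log2 fold change was 0.99 with both and 0.55 without DOX replicate 2. Over 17 alternatives it ran from 0.55 to 1.63, and DESeq2 did not call it. CLSPN, the adaptor by which ATR activates CHEK1, fell from 73.6 and 80.8 CPM to 58.9 and 59.9 CPM, and CHEK1 itself from 69.9 and 70.2 CPM to 55.4 and 59.7 CPM, by 0.40 and 0.31 on the log2 scale. The CHEK1 call was lost without DOX replicate 1. ATM, ATR and BRCA1 did not pass, at −0.13, −0.11 and −0.25.

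Many G2/M genes share a promoter sequence, which the gate did not use. The core of the cell cycle homology region, TTTGAA on either strand, was in a RefSeq promoter window (250 bases before to 50 after the gene start, GRCh38.p14) of 29 of the 40 listed G2/M genes outside the score that had a window, or 72.5%. Of the 6 score genes with a window 4 held it. Over all 27305 genes with a window the share was 18.2%, and it was 12.5% of 32 S phase genes and 11.5% of 26 p53 targets. A match says only that the letters are there. The matches in 2 score genes and in 3 others are shown 5′ to 3′ in the direction of the gene, with the 6 letters in capitals.
CDC20 (chr1:43358906-43358931, plus strand, 65 bases before the start): acggttggatTTTGAAggagccaata
PLK1 (chr16:23678850-23678875, plus strand, 29 bases before the start): cagcgccgcgTTTGAAttcggggagg
CCNB2 (chr15:59105107-59105132, plus strand, 29 bases before the start): cgacgcggtaTTTGAAtcctggaaca
CDC25C (chr5:138331819-138331844, minus strand, 30 bases before the start): tggcggaaggTTTGAAtggtcaacgc
MKI67 (chr10:128126437-128126462, minus strand, 29 bases before the start): ttcgttttcgTTTGAAttgggcgggc

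Genes of the preceding phase were lower in DOX G2/M cells. Of 41 S phase genes tested 29 fell and none rose, a median log2 fold change of −0.37, against 8.06% of all genes that were lower. Without DOX replicate 2 the count was 20 and without DOX replicate 1 it was 23. It was 29 when untreated cells were drawn to match the DOX cells in score, and 29 when they were matched in total UMIs. Per cell at 20000 UMIs, the list summed to medians of 67.5 and 67 UMIs in untreated and 54.5 and 53 UMIs in DOX G2/M cells, and 22.9% and 31.1% of the DOX cells lay under the 5th percentile of untreated cells. The quartiles are drawn in the plot of list sums per cell. The fall was not confined to G2/M cells. In deep cells below the gate all 41 genes fell, with a median of −0.78, against 25.2% of all genes that were lower there. DOX cells below the gate also had lower scores than untreated ones.

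DTL, which sends CDT1 and p21 to destruction in S phase, was at 38.8 and 44 CPM in untreated and 26.2 and 24.1 CPM in DOX G2/M cells, a log2 fold change of −0.74, with adjusted p = 4.51e-05 in edgeR and an SE of 0.092. GINS2, a subunit of the replicative helicase, was at 86.0 and 78.5 CPM against 54.7 and 54.0 CPM, a log2 fold change of −0.63. PCNA, the sliding clamp of DNA polymerase, fell less, from 181 and 173 CPM to 151 and 134 CPM, and its call was lost without DOX replicate 2.

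Licensing loads the helicase onto origins. The list of licensing and related genes, with its brakes, overlaps the S phase list (MCM6 and GINS2, among others, are in both). It moved the same way: 15 of 17 fell, against 8.06% of all genes, and none rose, with a median of −0.43. MCM10 had 56.2 and 68.2 CPM (untreated) and 40.5 and 40.1 CPM (DOX), and MCM6, a helicase subunit, 65.2 and 69.0 CPM against 46.4 and 47.3 CPM. The log2 fold changes were −0.65 and −0.54. Without DOX replicate 2 the count of genes that fell was 9 and without DOX replicate 1 it was 11. FBXO5 (EMI1), the brake on the anaphase-promoting complex, had a log2 fold change of −0.08 and did not pass. Below the gate all 17 genes fell, with a median of −0.835, against 25.2% of all genes that were lower there.

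**Figure D3:**
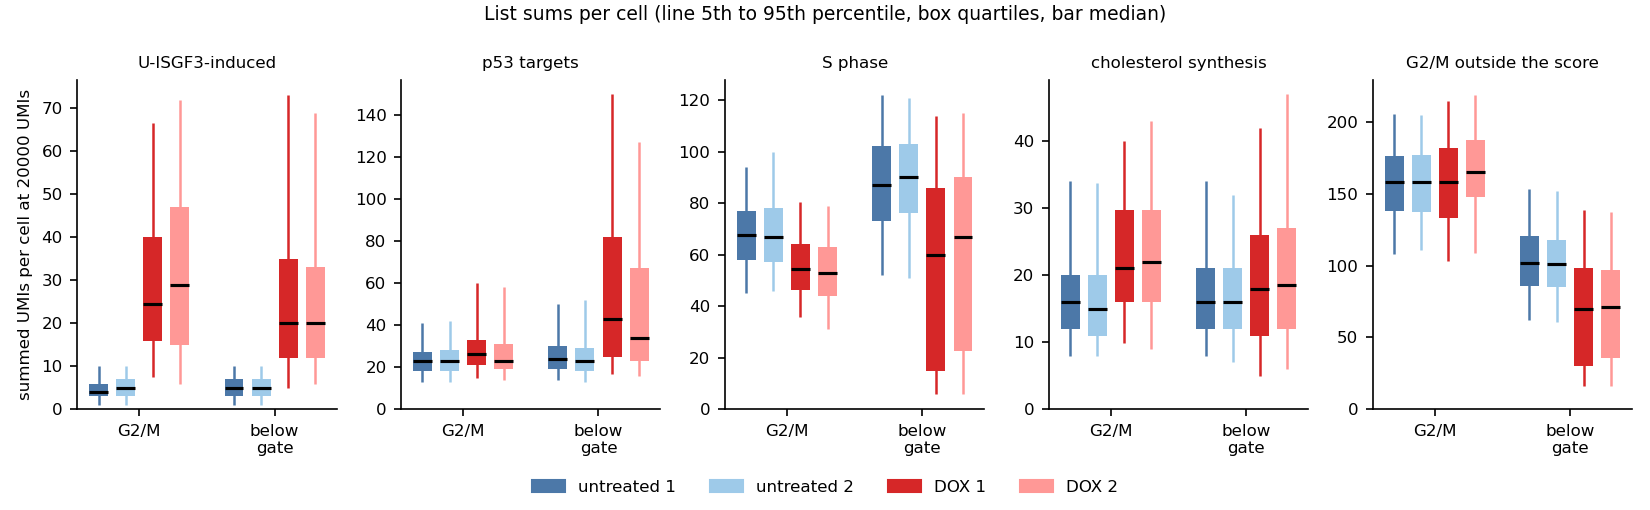
Each box gives summed UMIs of a list per cell after thinning every cell to 20000 UMIs (y axis, box for the quartiles, black bar for the median, line from the 5th to the 95th percentile) in 4 libraries, for G2/M cells and for deep cells below the gate. U-ISGF3 medians rise from 4 and 5 to 24.5 and 29 UMIs in G2/M cells, p53 medians are 23 and 23 against 26.5 and 23, and S phase medians fall from 67.5 and 67 to 54.5 and 53.

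p53 targets were raised in part. Of 30 tested 16 rose, against 9.01% of all genes, and 1, TRIAP1, fell, with a median log2 fold change of 0.30. Without DOX replicate 1 the count that rose was 11, and DESeq2 called 8. CDKN1A (chr6:36644237-36655114 in hg19, plus strand), which encodes p21, was at 15.1 and 13.6 CPM in untreated and 47.1 and 50.8 CPM in DOX G2/M cells. Both DOX values were far above the untreated ones, and the log2 fold change was 1.74, with adjusted p = 1.48e-09 in edgeR and an SE of 0.096. At 20000 UMIs per cell its mRNA was seen in 46.5% and 44.3% of DOX G2/M cells, against 14.8% and 18.0% of untreated ones.

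GDF15, a secreted stress cytokine, was at 13.5 and 13.3 CPM in untreated and 75.7 and 45.8 CPM in DOX G2/M cells, a log2 fold change of 2.16. The DOX libraries differed more than in CDKN1A, but both were above both untreated libraries. DDB2, a sensor of damaged DNA, rose from 27.0 and 26.9 CPM to 41.9 and 40.5 CPM. MDM2, which degrades p53, moved less, with a log2 fold change of 0.30, and BAX, PPM1D and ZMAT3 did not pass, at 0.09, 0.13 and 0.06.

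Most DOX G2/M cells lay within the untreated range of summed p53 targets. Summed per cell at 20000 UMIs, the list had medians of 23 and 23 UMIs in untreated and 26.5 and 23 UMIs in DOX G2/M cells, so the conditions overlapped. Only 14.7% (95% exact interval 9.75 to 20.9%) and 11.5% (6.42 to 18.5%) of DOX G2/M cells exceeded the 95th percentile of untreated G2/M cells, 41 UMIs. Among deep DOX cells below the gate 44.3% and 33.6% exceeded that of untreated cells below the gate, 51 UMIs. These sums weigh genes by their abundance. In gated cells CDKN1A and GDF15 held 15.1 and 13.5 of the list's 1229.5 CPM in untreated 1. In DOX 1 they held 47.1 and 75.7 of 1545.5 CPM. The sums therefore say little about targets at low levels, and do not show that most cells lacked a rise of CDKN1A or GDF15. Barcodes under 2000 UMIs of the DOX libraries, which can hold free RNA and broken cells, had 402 and 358 CPM of CDKN1A and 591 and 536 CPM of GDF15. The part of free RNA in the values of gated cells was not tested, and this culture of 1 line has no cell type that should lack either gene.

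Several death genes were higher, in a comparison where 9.01% of all genes were higher and 8.06% lower. BBC3, FAS and TNFRSF10B, named next, are also among the p53 targets above. Of 18 genes of the BCL2 family and death receptors 5 rose (BBC3, FAS, BIK, TNFRSF10B and PMAIP1) and 1, BAK1, fell; without either DOX library 3 rose. BBC3, which encodes the killer protein PUMA, was at 5.42 and 5.12 CPM (untreated) and 8.56 and 12.6 CPM (DOX), a log2 fold change of 0.95. FAS, a death receptor, was at 7.64 and 8.24 CPM against 12.9 and 11.7 CPM. MCL1, BCL2L1 and BCL2, which hold death back, did not pass, at 0.01, −0.16 and −0.28.

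Interferon-induced genes were among the largest rises. Of the 10 largest by the rule used here (mean of at least 20 CPM over both conditions), 9 were interferon-induced genes and the other was GDF15. All of them but ISG15 had untreated means under 20 CPM, from 1.34 (IFI27) to 13.4 CPM (GDF15). They passed this floor only through the DOX libraries, so the ranking is a description. IFI27 (chr14:94571182-94583032 in hg19, plus strand), a small mitochondrial protein gene, stood at 1.22 and 1.46 CPM in untreated and 103 and 111 CPM in DOX G2/M cells, a log2 fold change of 6.30, with adjusted p = 2.06e-16 in edgeR and an SE of 0.112. IFI6 went from 8.66 and 9.29 CPM to 516 and 576 CPM, a log2 fold change of 5.90. IFIT1, which binds foreign RNA caps, went from 1.98 and 1.59 CPM to 70.1 and 81.8 CPM, a log2 fold change of 5.35. The replicates of a condition were close together in each of these genes, and the conditions were far apart.

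ISG15 (chr1:936518-949920 in hg19, plus strand), a ubiquitin-like modifier, was present without DOX, at 119 and 124 CPM, and reached 735 and 780 CPM, a log2 fold change of 2.61. PARP9, SAMD9, DDX58 (RIG-I), OAS3 and SP110 completed the 9, with log2 fold changes of 3.58, 3.32, 2.81, 2.60 and 2.54.

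**Figure D4:**
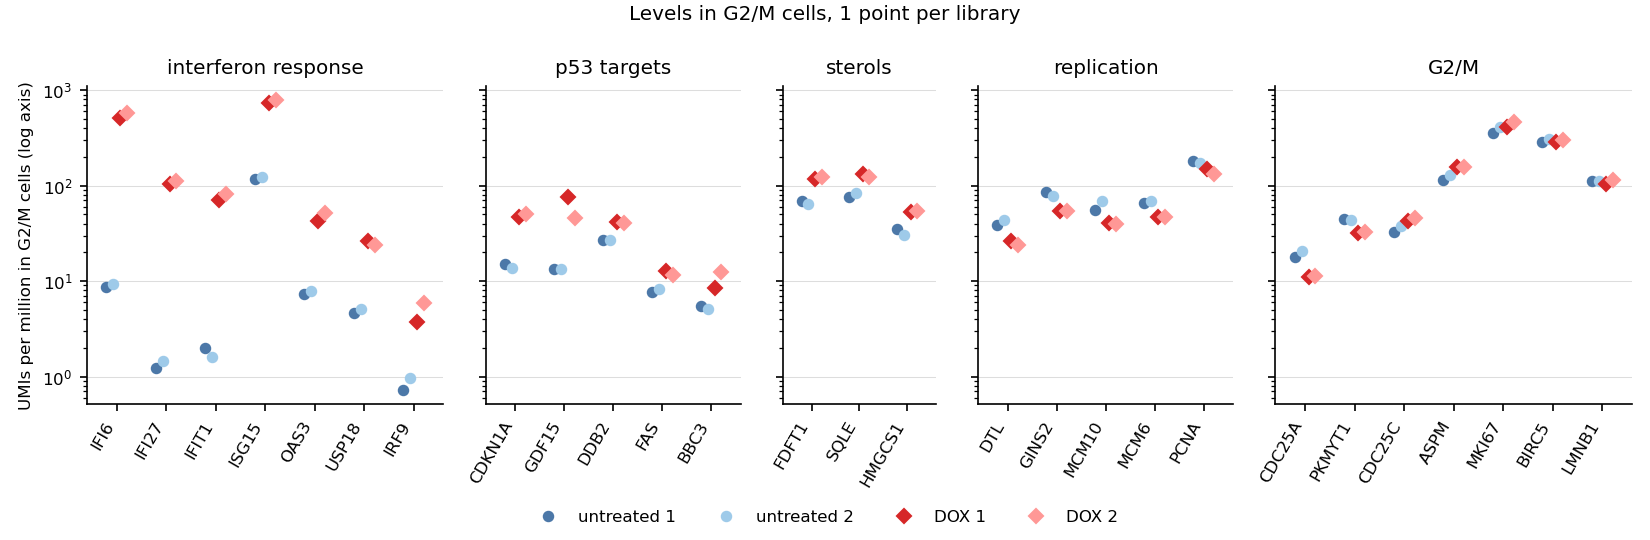
Counts per 1000000 UMIs in the summed G2/M cells (log axis), 1 point for each of 4 libraries, circles for untreated and diamonds for DOX. Interferon genes such as IFI27 (1.22 and 1.46 against 103 and 111 CPM) and p53 targets such as CDKN1A (15.1 and 13.6 against 47.1 and 50.8 CPM) are apart between conditions, replication genes are lower with DOX, and MKI67, BIRC5 and LMNB1 overlap.

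Of the 29 U-ISGF3-induced genes 24 were tested. IFI44, IFI44L, MX1, MX2 and OAS1 had at most 3 UMIs in either untreated library and reached the test only through the DOX libraries. Of the other 19, 18 rose, against 9.01% of all genes, with a median log2 fold change of 2.81. With those 5 genes the count was 23 of 24 and the median 3.13, also with the 5 set to their bound (3 counts over the untreated group). TMEM140 did not pass, at 0.18. OAS1, which makes the second messenger of RNase L, had 3 and 0 UMIs in untreated and 165 and 178 UMIs in DOX G2/M cells. OAS2, IFITM1, RARRES3, XAF1 and RTP4 were too low to test, with at most 4 UMIs in any library. The count was 21 to 23 when each library was left out in turn, since without DOX replicate 1 only 22 genes were tested.

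A rise of the summed list was seen in most DOX G2/M cells. ISG15 weighs most in this sum. It held 119 and 124 of the list's 233 and 246 CPM in the untreated libraries. In the DOX libraries it held 735 and 780 of 1463 and 1578 CPM. The sums therefore do not show that each gene rose in most cells. Summed per cell at 20000 UMIs, the 29 genes gave medians of 4 and 5 UMIs in untreated and 24.5 and 29 UMIs in DOX cells. In DOX 91.2% (95% exact interval 85.9 to 95%) and 87.7% (80.5 to 93.0%) of G2/M cells exceeded 10 UMIs, the 95th percentile of untreated G2/M cells. Below the gate 79.0% and 81.5% of deep DOX cells exceeded 10 UMIs, the 95th percentile there. IFI27 alone was seen in 53.5% and 60.7% of DOX G2/M cells, against 1.61% and 2.38% of untreated ones. Barcodes under 2000 UMIs of the DOX libraries had 274 and 282 CPM of IFI27 and 1628 and 1617 CPM of ISG15, above the gated cells, but 25.5 and 23.3 CPM of PARP9, below them. The part of free RNA was not tested. Within DOX G2/M cells the sums of U-ISGF3 genes and p53 targets per cell had Pearson correlations of −0.19 (170 cells) and 0.05 (122 cells), a description of cells that share a library.

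STAT2 and IRF9 of ISGF3 rose in the same cells. STAT2 was at 5.85 and 6.56 CPM in untreated and 12.3 and 16.0 CPM in DOX G2/M cells, a log2 fold change of 1.16. IRF9, the DNA-binding partner, was sparse, at 0.725 and 0.956 CPM against 3.71 and 5.92 CPM, a log2 fold change of 2.49. Of 11 JAK/STAT and ISGF3 genes 6 rose and none fell, and the count was 4 without untreated replicate 1 or without either DOX library. Over all genes 9.01% were higher. The kinases JAK1, JAK2 and TYK2 did not pass, at 0.12, 0.10 and −0.14.

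The interferon receptors did not pass: IFNAR1 had a log2 fold change of −0.05 and IFNAR2 of 0.04. Of 12 receptors and brakes USP18 and SOCS1 rose and SOCS3 fell, 25.0% called against 17.1% of all genes. USP18, which blocks IFNAR2 and removes ISG15, was at 4.68 and 5.10 CPM (untreated) and 26.0 and 24.1 CPM (DOX), a log2 fold change of 2.33. The fall of SOCS3 lost its call without untreated replicate 1 or DOX replicate 1. Sensors of nucleic acid were raised, 8 of 13 against 9.01% of all genes, and 1, TBK1, fell. IFIH1 (MDA5), which senses long double-stranded RNA, was at 3.19 and 2.66 CPM (untreated) and 29.1 and 35.7 CPM (DOX), a log2 fold change of 3.42. EIF2AK2 (PKR), which stops translation on such RNA, was at 76.1 and 83.8 CPM against 219 and 230 CPM, a log2 fold change of 1.46. HSH2D, an adaptor that the study follows, was at 5.85 and 6.95 CPM against 29.2 and 32.1 CPM, a log2 fold change of 2.24.

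The promoters of these genes hold the letters of the ISRE. The pattern searched, a pair of GAAA with any 2 bases between them on either strand, was in a RefSeq promoter window (as above) of 17 of the 23 listed U-ISGF3-induced genes that had one, or 73.9%, and of 4.38% of all 27305 genes. It was in 3 of 40 G2/M genes outside the score, in none of 32 S phase genes and in 1 of 26 p53 targets. A match is a description of these letters and not of binding. Matches of 5 of the genes that rose are shown in the direction of the gene, with the 10 letters in capitals (starting with TTTC where the match is on the other strand).
IFI27 (chr14:94110618-94110647, plus strand): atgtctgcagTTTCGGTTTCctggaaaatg
IFIT1 (chr10:89392497-89392526, plus strand): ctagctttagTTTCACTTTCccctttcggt
ISG15 (chr1:1013380-1013409, plus strand): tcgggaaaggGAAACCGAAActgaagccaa
OAS3 (chr12:112938321-112938350, plus strand): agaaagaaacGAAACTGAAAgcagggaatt
BST2 (chr19:17405741-17405770, minus strand): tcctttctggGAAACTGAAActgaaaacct

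Genes that show peptides on the cell surface rose with them. Of 17 MHC class I presentation genes 14 rose, against 9.01% of all genes, and 1, PSMB10, fell, with a median log2 fold change of 0.71. PSMB9, a subunit of the immunoproteasome, was at 3.89 and 3.98 CPM (untreated) and 21.8 and 23.2 CPM (DOX), a log2 fold change of 2.49. TAP1, which pumps peptides into the endoplasmic reticulum, was at 12.2 and 11.4 CPM against 27.0 and 26.0 CPM, and HLA-B, a presenting molecule, at 113 and 110 CPM against 211 and 229 CPM. The log2 fold changes were 1.14 and 0.95. HLA genes resemble each other, and reads that they share make single HLA values uncertain.

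Cholesterol synthesis was higher in DOX G2/M cells. Of 21 genes 14 rose, against 9.01% of all genes, and none fell, with a median log2 fold change of 0.38. Without DOX replicate 2 the count was 9. FDFT1 (squalene synthase) was at 69.7 and 64.0 CPM (untreated) and 118 and 123 CPM (DOX), a log2 fold change of 0.82. SQLE, which makes squalene epoxide, was at 75.9 and 82.9 CPM against 132 and 122 CPM, and HMGCS1, near the start of the pathway, at 35.4 and 30.6 CPM against 52.9 and 53.9 CPM. In each gene both DOX libraries were above both untreated ones. Per cell at 20000 UMIs the list summed to medians of 16 and 15 UMIs in untreated and 21 and 22 UMIs in DOX G2/M cells.

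Secreted factors of senescence rose in 9 of 18 tested genes and fell in none, a median of 0.38, and in 5 genes without either DOX library. The share of all genes that were higher was 9.01%. PLAUR, the urokinase receptor, was at 33.9 and 32.5 CPM (untreated) and 59.3 and 57.8 CPM (DOX), and IGFBP6, which binds IGF2, at 44.4 and 43.8 CPM against 77.1 and 71.5 CPM. The log2 fold changes were 0.79 and 0.73, and in deep cells below the gate they were 0.53 and 1.63. Of 8 nuclear lamina genes 1 fell (12.5%, against 8.06% of all genes), BANF1, by 0.26, and the call was lost without either DOX library. Of 14 histone genes 2 rose (14.3%, against 9.01% of all genes), among them H1F0, a linker histone of resting cells, from 83.4 and 87.8 CPM to 141 and 150 CPM, and without untreated replicate 2 or DOX replicate 2 the count was 6. NEAT1, the RNA scaffold of paraspeckles, rose from 93.0 and 98.1 CPM to 206 and 171 CPM. Its log2 fold change was 0.96, and MALAT1 did not pass, at 0.23. Below the gate these were 1.76 and 0.73.

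The largest falls were smaller than the largest rises. F3, which encodes tissue factor, went from 52.2 and 48.2 CPM to 25.1 and 17.7 CPM, a log2 fold change of −1.25, with adjusted p = 2.74e-06 in edgeR and an SE of 0.122. ODC1, the first enzyme of polyamine synthesis, went from 758 and 670 CPM to 392 and 388 CPM, and BMP4, a growth factor, from 91.3 and 97.6 CPM to 55.5 and 50.8 CPM, log2 fold changes of −0.90 and −0.85. SNHG9, CPA4, PSMC3IP and GREB1L fell by 1.05, 0.76, 0.76 and 0.75. BCYRN1 and EIF5AL1, at −1.16 and −0.87, have near-identical copies in the genome, so that their values are uncertain, and EIF5AL1 was at −0.54 without untreated replicate 1. Another gene of the 10 is not named here.

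The effect of DOX in G2/M cells was tested against its effect in the deep cells below the gate of the same libraries. This was 1 edgeR quasi-likelihood fit with a term for each library. Its differences need not equal the gap between the log2 fold changes, which were fitted separately above and below the gate. Of 19860 genes 20.1% differed, 13.1% with a higher and 7.04% with a lower log2 fold change in G2/M cells. The DOX cells below the gate had a lower score than the untreated ones (medians of 5.06 and 5.41 against 11.5 and 11.4), so this contrast also holds the difference in cycle stage below the gate. When untreated cells below the gate were drawn to match the DOX cells in score (80 and 40 cells), a choice made after seeing the data, 91 and 77 genes differed in place of 2603 and 1398. The untreated sums below the gate then held 5431675 and 2933174 UMIs, against 185627890 and 116974281 before. The part of these lower counts in the lost calls was not tested. All 45 G2/M genes outside the score had a higher fold change in the gate in the first fit and 2 in the matched one, and the choice of cells by score enters these values.

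p53 targets had the lower effect in G2/M cells. Of 31 tested 25 had a lower and none a higher log2 fold change in G2/M cells than below the gate, against 7.04% of all genes, but in the matched fit none had a lower and 1 a higher one. CDKN1A rose by 1.74 in G2/M cells and by 2.86 below the gate on the log2 scale, a difference of −1.20, with adjusted p = 1.62e-04 in edgeR and an SE of 0.150, and by the matched fit the difference was 0.55 (adjusted p = 0.361). GDF15 had differences of −0.43 and, matched, 1.45.

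U-ISGF3-induced genes were raised both in G2/M cells and below the gate. Of 27 tested 12 had a higher and 1 a lower log2 fold change in G2/M cells, and in the matched fit 2 of 26 had a higher one. Over all genes, here and for the cholesterol genes below, 13.1% had a higher and 7.04% a lower one. The 27 include genes near 0 in untreated cells, such as OAS1, whose difference of 1.74 (SE 0.991) did not pass. ISG15 rose by 2.61 in G2/M cells and by 2.26 below the gate, a difference of 0.28, with adjusted p = 2.19e-03 in edgeR and an SE of 0.052. The matched fit gave 0.33 (adjusted p = 0.0238). Of the 21 cholesterol genes 13 had a higher fold change in the gate, and 2 without untreated replicate 2, 8 without untreated replicate 1 and 3 in the matched fit.

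**Figure D5:**
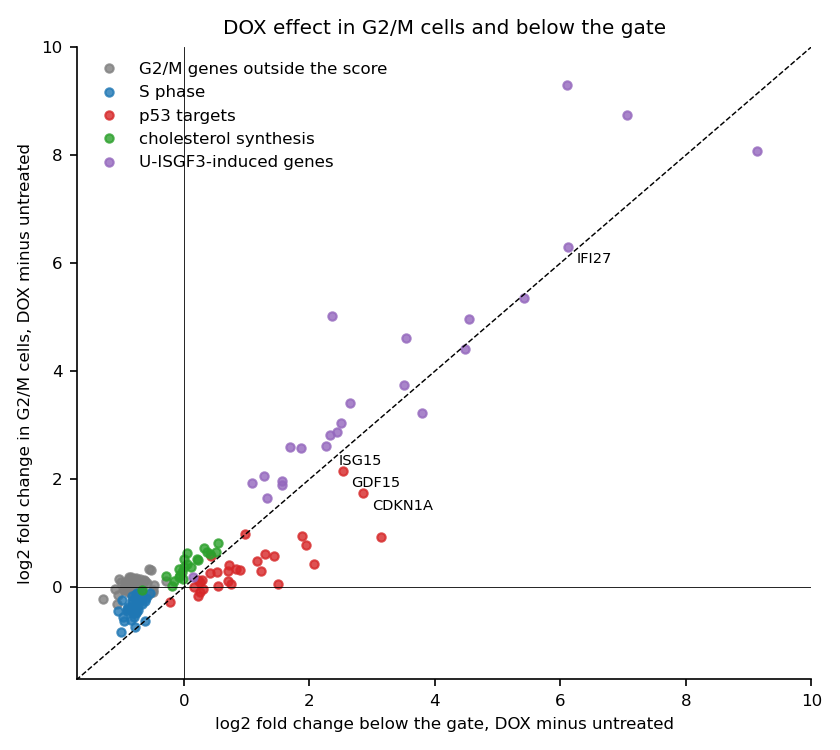
Each point is a gene of 1 of 5 lists, with its log2 fold change (DOX minus untreated) in deep cells below the gate on the x axis and in G2/M cells on the y axis, and a dashed line where both are equal. Most p53 targets lie under the line (CDKN1A at 2.86 and 1.74), with DDB2 (0.43 and 0.58) and GADD45A (0.97 and 0.99) over it, most U-ISGF3-induced genes on or over it (ISG15 at 2.26 and 2.61), and G2/M genes near 0 on the y axis and under 0 on the x axis.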

How the data were processed

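Single-cell libraries of HCT-116 cells (10x Genomics) were taken as deposited: UMI counts per gene and barcode, made by the authors with Cell Ranger against hg19 (version 7.2.0 per the file headers, 7.0.0 in the submitters' notes), with the DOX libraries forced to 8000 barcodes. The label UTR was read as untreated. Barcodes were filtered, scored and gated as described above, and the counts of gated cells were summed per library. Library totals over all barcodes ran from 159897846 to 317489299 UMIs.

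DOX and untreated sums were compared with edgeR 4.0.16 in R 4.3.3 (filterByExpr, TMM factors, quasi-likelihood F test, Benjamini-Hochberg adjusted p under 0.05), 2 libraries against 2. SE was the log2 fold change over the square root of F. The difference between cells above and below the gate was the interaction term with a term per library. For values per cell, each cell was thinned to 20000 UMIs. The members and lists were chosen with earlier results of these data known. Genes named by rule were the 8 score genes, in every list the 3 genes of lowest adjusted p plus any member shown as not passing, the 10 largest rises and 10 largest falls among called genes at a mean of at least 20 CPM whose libraries did not overlap between conditions, the 5 largest interactions in each direction, and the genes that the study names for its single-cell results. Not every such gene is printed, and other genes named to complete a count or give an example were chosen after their values were seen. Fits were tested on simulated data.

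Alternatives were DESeq2 1.42.0, RLE or no TMM factors, no filter on low counts, a replicate block, each library left out (the lone sample is then assumed to vary like the other group), and other gates, depths, mitochondrial limits, score genes and matched cells. Of the 10 largest falls 1 is not reported here, nor is 1 other gene of the lists.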

Additional observations from a re-analysis of the deposited data

Results flagged for a closer look

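The results given here were singled out because the effect of DOX in G2/M cells differed from its effect in deep cells below the gate, by the interaction term of edgeR's quasi-likelihood test. It was higher in G2/M cells for 2603 genes and lower for 1398. In the fit against untreated cells below the gate matched in score, added after seeing the data and with far smaller untreated sums, the counts were 91 and 77.

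CDKN1A had a difference in log2 fold change of −1.20, which was 0.55 (adjusted p = 0.361) in the matched fit. GDF15 had −0.43, which was 1.45 in the matched fit. CPA4, a carboxypeptidase gene, fell in G2/M cells by 0.76 and rose below the gate by 1.12 on the log2 scale, a difference of −1.96, and in the matched fit it was −1.73. FTH1, ferritin heavy chain, which has near-identical copies that make its value uncertain, had −1.10 and, matched, −0.64. GSN, which cuts actin filaments, had −1.11 and, matched, −0.57, which did not pass, and KLK6, a secreted protease, had −1.03 and, matched, −0.25, which did not pass either.

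The mitotic genes NCAPG, CDKN3, PIF1, NEK2 and KIF20A had 1.06, 1.06, 1.08, 1.13 and 1.14, values that the choice of cells by a G2/M score partly sets. In the matched fit PIF1 was −0.60 (adjusted p = 0.346). Over 16 alternatives CDKN3, NEK2 and KIF20A each lost the call in 1, and their lowest values were 0.33, 0.34 and 0.19. NCAPG kept its call, with a lowest value of 0.45. The interferon-induced gene ISG15 had 0.28, and 0.33 (adjusted p = 0.0238) in the matched fit.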

How the results depend on the processing

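Of 105 genes named in the comparison of DOX with untreated G2/M cells 80 were called, and over 17 alternatives none of these changed direction, 26 lost the call in at least 1 and 54 kept it in each. The 1470 higher genes were 667 with DESeq2 and 725 after thinning, and 912 to 1387 with each library left out. The 1314 lower genes were 1995 with no filter, 788 above the 90th percentile and 524 after thinning, and 483 to 1788 with each library left out. The lowest of both came without DOX replicate 2. Of all calls 52.8% were higher, 62.0% with no TMM factor and 38.8% with DESeq2.

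For the interaction, the 2603 higher genes were 1612 with no TMM factor, 1271 above the 90th percentile, 5095 at a mitochondrial limit of 20% and 91 with score-matched cells, and 1285 to 3035 with each library left out. The 1398 lower genes were 402 with DESeq2, 369 above the 90th percentile, 572 after thinning and 77 with score-matched cells, and 712 to 2024 with each library left out. The share of calls that were higher was 65.1%, against 44.9% with no TMM factor, 71.5% with RLE factors, 82.0% with DESeq2 and 54.2% with score-matched cells. With score-matched cells CDKN1A, GDF15 and PIF1 changed sign, to 0.55, 1.45 and −0.60, and the values of CDKN1A and PIF1 did not pass.

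The share above the gate in DOX over untreated was 0.518, and 0.576 at the 90th percentile, 0.629 with other score genes and 0.423 at a mitochondrial limit of 20%. The ratio of median UMIs was 1.09 and turned to 0.982 with other score genes. The ratio of mitochondrial shares was 1.12, and 1.15, 1.10 and 1.10 at the 90th percentile, with other score genes and after thinning. Where no cause is shown by the alternative itself, the cause was not tested.

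With the replicate number as a block, 1697 genes were higher and 1697 lower, and 2584 and 1430 for the interaction. The deviations of same-numbered libraries correlated at 0.0132, and with 2 pairs the numbers are not taken to pair the libraries. The 170 and 122 DOX cells limit the precision of every value in DOX G2/M cells.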
